A study of Acipenser baerii with 14 samples.

Results

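The fibroblast growth factor (FGF) signaling genes described here are 48 assembled contigs with 33 distinct names, out of 23448 assembled genes of the Siberian sturgeon (*Acipenser baerii*). A contig was taken when its deposited name was an FGF, an FGF receptor, a Sprouty, a Spred or an FRS adaptor with a number, or *dusp6*, *etv1*, *etv4*, *etv5* or *il17rd*. No contig was named *fgfrl1* or *fgfbp1*, which the same rule would also have taken. The rule rested on names and used no measured value, but it was set with earlier results of these data known. RNA of ampullary organs (AO, the electroreceptors) and neuromasts (NM, the mechanoreceptors), both cut from the ventral head, and of general epithelium (EP) of the ventral trunk was sequenced in 14 libraries of 7 groups. The groups were AO, NM and EP of untreated larvae, and AO and NM taken at 12 and 24 hours post treatment (hpt) from larvae that had been kept in 200 µM neomycin for 1 h. Neomycin is an antibiotic that kills the sensory hair cells of the lateral line, and the larvae were treated at 10 days post hatching. The larvae formed 3 sets (untreated, 12 hpt and 24 hpt), so that the tissues compared at a given time came from the same larvae. Tissue of many larvae was pooled for each group and each pool was divided into 2 parts before RNA extraction. The 2 replicates of a group are therefore technical from that step on, and the p-values below measure the spread between these extractions, not between larvae. No EP was taken after neomycin and no untreated larvae were taken at the later hours, so that treatment and elapsed time cannot be told apart. Likewise, organ and body region cannot be told apart in a comparison with EP.

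FGF ligands are secreted proteins that bind receptor tyrosine kinases together with heparan sulfate on the cell surface. The activated receptor recruits the adaptor Frs2 or Frs3 and drives the RAS and ERK kinase cascade, which switches on the ETS transcription factors Etv1, Etv4 and Etv5. Sprouty, Spred, Dusp6 and Sef (the product of *il17rd*) dampen the cascade, and several of these genes are themselves induced by it. In the zebrafish lateral line primordium, Fgf3 and Fgf10 pattern the forming neuromasts. A branch of the family, the FGF homologous factors, stays inside the cell and binds sodium channels of excitable cells in place of the receptors.

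Of the 48 contigs, 46 had enough counts to be tested together with 21978 genes in all. The other two, *fgf5* with 32.9 expected counts over all libraries and the endocrine ligand *fgf19* with 27.8, were too low. By role, the tested contigs were 12 secreted ligands, 3 FGF homologous factors, 9 receptors, 3 adaptors, 4 Sprouty, 5 Spred, 3 other feedback inhibitors and 5 ETS factors. A further 2 contigs, named *fgfr1op*, fitted the rule by their letters alone, since that gene is known to encode a centrosomal protein. In 12 names the assembly held several contigs, 27 in all. The sturgeon is polyploid, so these may be gene copies or pieces of a gene, and reads that match several of them equally were shared out among them. Levels are given as CPM, expected counts scaled to a common library size with the trimmed mean of M-values (TMM). They are not divided by length, so a level can be compared between libraries but not between genes.

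Library totals ran from 7121038 to 10067958 expected counts. Markers of hair cells and electroreceptor cells (6 of 8 symbols found, 26 contigs) summed to 327–353 CPM in untreated AO, 213–224 in untreated NM and 27.0–31.5 in EP. Of its 22 tested contigs, 10 were higher in untreated AO and 8 in untreated NM than in EP, and none was lower. Other tissues were present in unequal amounts. The muscle list (5 of 6 symbols) ranged from 49.8 CPM in untreated NM to 24307 in EP, and the lens list (4 of 6 symbols) from 6.74 CPM in untreated NM to 2591 in NM at 24 hpt. The neuron list (5 of 6 symbols) ranged from 68.8 CPM in EP to 653 in NM at 24 hpt. The levels of these lists are given below beside the genes they moved with. In such bulk tissue, fewer cells of a type and less RNA per cell cannot be told apart.

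Over 13 comparisons, 21 of the 46 tested contigs (17 names) passed the test at least once, and 25 never did. That is 45.7% of the tested members, against 36.3% of all genes tested. A contig was called when its log2 fold change was beyond 1 in either direction with a Benjamini-Hochberg false discovery rate (FDR) under 0.01 in edgeR's quasi-likelihood test, adjusted over all genes tested. The median log2 fold change of the 46 contigs lay between -0.32 and 0.21 in the 13 comparisons, and that of all genes tested between -0.10 and 0.13.

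**Figure D1:**
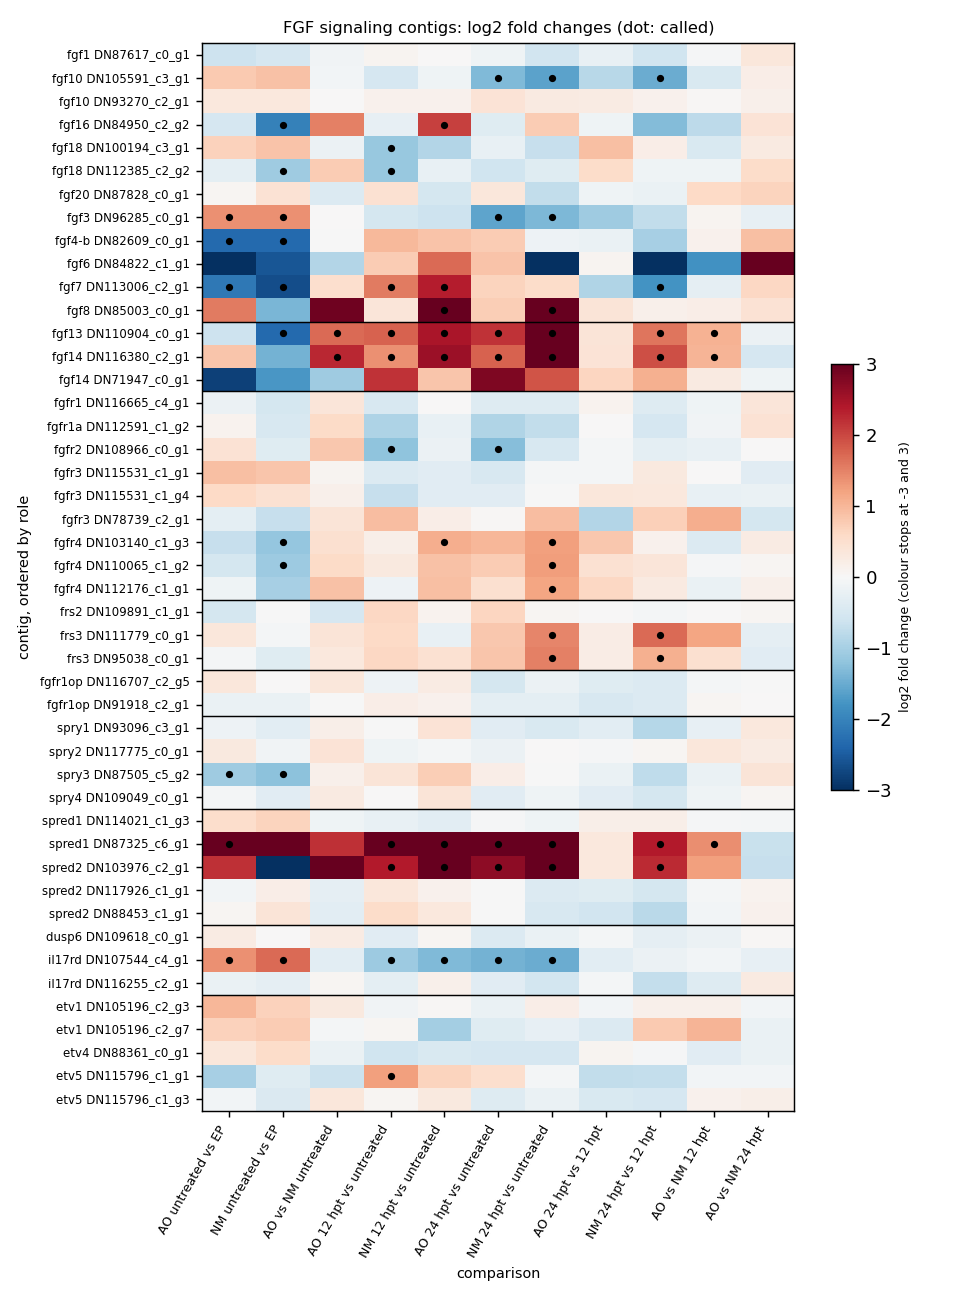
Log2 fold change (color, cut at -3 and 3) of the 46 tested contigs (y axis, ordered by role, with lines between roles) in 11 comparisons (x axis), where a dot marks a called contig. Columns of blue and red are mixed in each comparison, and 2 Spred contigs and 2 FGF homologous factors are called higher, and 1 *il17rd* contig lower, in all 4 comparisons of treated with untreated organs.

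Untreated organs were first compared with EP to see which FGF genes marked the sensory organs. In AO, 3 contigs were higher than in EP (*fgf3*, the *il17rd* contig DN107544_c4_g1 and the *spred1* contig DN87325_c6_g1) and 3 were lower (*fgf7*, *fgf4-b* and *spry3*). These were 6 of 46 tested members, against 14.3% of all genes tested (7.46% higher and 6.81% lower). In NM, *fgf3* and the same *il17rd* contig were higher, and 8 contigs were lower: *fgf7*, *fgf16*, *fgf18* (DN112385_c2_g2), *fgf4-b*, *fgf13*, *spry3* and the *fgfr4* contigs DN103140_c1_g3 and DN110065_c1_g2. These 10 calls were 21.7% of the tested members, against 13.2% of all genes (4.06% higher and 9.19% lower). Both comparisons used the same 2 EP libraries and are not independent of each other. Without EP replicate 1, the count for NM was 6.

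Untreated AO and NM were compared next. *fgf13* and the *fgf14* contig DN116380_c2_g1, both FGF homologous factors, were higher in AO, and none was lower. These 2 calls were 4.35% of the tested members, against 6.02% of all genes (5.20% higher and 0.828% lower). The count was 3 in edgeR's exact test, 3 in DESeq2 and 5 under the replicate block. The *fgf13* call was lost without either untreated AO library or either untreated NM library. In a fit of the groups compared alone the count was 0, but that fit called few genes at all (78 higher and 67 lower of 20156).

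Neomycin was followed by changes in both directions. In AO at 12 hpt, 6 contigs rose and 4 fell against untreated AO, which together were 21.7% of the tested members against 12.0% of all genes (9.84% higher and 2.21% lower). In NM at 12 hpt, 8 rose and 1 fell, 19.6% of the tested members against 12.4% of all genes (11.1% higher and 1.32% lower). In AO at 24 hpt, 4 rose and 4 fell, 17.4% against 16.0% of all genes (12.6% higher and 3.47% lower). In NM at 24 hpt, 10 rose and 3 fell, 28.3% against 21.2% of all genes (16.1% higher and 5.01% lower). The 12 and 24 hpt comparisons of an organ share its untreated libraries. The count for AO at 12 hpt was 6 when untreated AO replicate 1 or 12 hpt AO replicate 2 was left out.

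Between the later time points, no contig passed edgeR's quasi-likelihood test in AO. Of all genes, 2.79% were called (1.64% higher and 1.16% lower). An unadjusted p under 0.05 was found for 18 members. The share of all genes at that p was not determined, so 2.79% cannot be set against it. edgeR's exact test called 1 and DESeq2 called 0. In NM, 6 contigs rose and 2 fell from 12 to 24 hpt, 17.4% of the tested members against 15.3% of all genes (9.67% higher and 5.59% lower). At 12 hpt, 3 contigs were higher in AO than in NM (*fgf13*, *fgf14* and *spred1*), 6.52% of the tested members against 3.72% of all genes (2.95% higher and 0.764% lower). These calls were lost when 12 hpt AO replicate 2 or a 12 hpt NM library was left out, and the count was 1 with contigs of a name summed. A fit of the groups compared alone called 0 higher and 0 lower of 21024 genes, so it cannot speak to these members. At 24 hpt, none passed between the organs in the quasi-likelihood test (3.49% of all genes, 3.11% higher and 0.378% lower). The exact test and DESeq2 both called 0. An unadjusted p under 0.05 was found for 7 members, again without the share of all genes at that p.

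Among the secreted ligands, *fgf3* was the member that marked both organs before treatment. *fgf3* stood in AO at 7.45 and 10.1 CPM before treatment, 5.91 and 6.31 at 12 hpt and 2.28 and 3.53 at 24 hpt. In NM it stood at 9.15 and 8.40 CPM untreated, at 4.82 and 6.61 at 12 hpt and at 2.64 and 4.17 at 24 hpt. EP held 3.18 and 3.63 CPM. The untreated libraries of both organs thus lay above every EP and every 24 hpt library, with the 12 hpt libraries in between, and the 24 hpt libraries overlapped with EP. The log2 difference from EP was 1.36 ± 0.27 (SE, n = 2 per group, FDR = 0.0026) in AO and 1.37 ± 0.27 (FDR = 0.003) in NM. The fall to 24 hpt was -1.58 ± 0.26 (FDR = 7.6e-04) in AO and -1.34 ± 0.26 (FDR = 0.0018) in NM. At 12 hpt the differences of -0.52 and -0.61 did not pass. A difference in *fgf3* between untreated AO and NM was not detectable (-0.00 ± 0.23). The difference from EP was lost when an EP library, untreated AO replicate 2 (for AO) or an untreated NM library (for NM) was left out, and the fall in NM was not called without untreated NM replicate 1 or 24 hpt NM replicate 1.

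*fgf10* encodes a ligand that acts from mesenchyme on epithelium in many organs. Its contig DN105591_c3_g1 stood in AO at 8.12 and 7.10 CPM before treatment, 5.78 and 4.97 at 12 hpt and 2.91 and 3.07 at 24 hpt. In NM the values were 7.09 and 8.92 CPM untreated, 7.76 and 7.16 at 12 hpt and 2.47 and 2.87 at 24 hpt, with 4.32 and 4.45 in EP. Both 24 hpt groups were below all other libraries, EP included. The fall from untreated was -1.32 ± 0.16 (FDR = 9.3e-05) in AO and -1.60 ± 0.17 (FDR = 2.2e-05) in NM. In NM it came between 12 and 24 hpt, with a change of -1.48 ± 0.17 (FDR = 7.3e-05) in that interval. With the 2 *fgf10* contigs summed, the fall in AO (-0.83) and that from 12 to 24 hpt in NM (-0.94) were under the fold threshold. The untreated organs were 0.78 (AO) and 0.87 (NM) above EP, under the fold threshold. The second *fgf10* contig was between 1.01 and 2.54 CPM in all libraries and was never called.

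Beside *fgf3* and *fgf10*, the hair cell list summed to 327–353 CPM in AO before treatment, 191–196 at 12 hpt and 121–127 at 24 hpt, when 7 of its 22 tested contigs were lower and 2 higher than untreated. For NM the sums were 213–224 CPM before treatment, 178–194 at 12 hpt and 211–233 at 24 hpt, when 1 contig was lower and 6 higher. No hair cell marker found was at 0 in any group. The list of dividing cells summed to 534–541 CPM in untreated AO and 381–384 at 24 hpt, and to 628–643 and 353–376 in NM. The part of these cell types in the ligand levels was not tested.

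*fgf8*, a ligand of ear and brain development, was at or near the limit of detection. It stood in AO at 1.03 and 0.975 CPM before treatment, 1.42 and 1.13 at 12 hpt and 1.29 and 2.11 at 24 hpt. NM held 0.213 and 0 CPM untreated, 1.15 and 1.10 at 12 hpt and 1.30 and 1.21 at 24 hpt, and EP held 0.421 and 0.258. Untreated NM was below every library of the treated groups and of AO, on only 2 counts. The ratio of pooled levels to untreated NM was 9.31 (95% exact counting interval 2.23 to 82.7) for NM at 12 hpt, 10.3 (2.55 to 90.3) for NM at 24 hpt and 8.32 (2.03 to 73.2) for untreated AO. These intervals cover counting error only. The rise in NM passed at 12 hpt (FDR = 0.0079) and at 24 hpt (FDR = 0.0029), but untreated AO and NM (FDR = 0.013) and untreated AO and EP (FDR = 0.061) did not pass. The paper, with edgeR's exact test at the same 2 thresholds, reported this contig as significantly higher in untreated AO than in untreated NM. The paper also described *fgf8* as higher in AO than in EP at every time point. The FDRs here come from the quasi-likelihood test and do not show whether the exact test calls these differences. The call at 12 hpt was lost in 14 of 21 alternatives: in DESeq2 and whenever 1 library other than untreated NM replicate 1 was left out. That at 24 hpt was lost in 5 of 23, among them DESeq2 and the omission of untreated NM replicate 2 or of either 24 hpt NM library.

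*fgf7*, the keratinocyte growth factor, was highest in EP. It stood at 21.3 and 17.1 CPM in EP, against 4.22 and 4.41 in untreated AO and 2.64 and 3.24 in untreated NM. At 12 hpt it was 14.1 and 11.4 CPM in AO and 17.1 and 13.9 in NM. At 24 hpt it was 7.04 and 6.51 CPM in AO and 5.03 and 3.86 in NM. Every 12 hpt library was above every untreated and 24 hpt library of its organ. The difference from EP was -2.15 ± 0.19 (FDR = 1.0e-05) in AO and -2.67 ± 0.20 (FDR = 4.3e-06) in NM. The rise at 12 hpt was 1.57 ± 0.19 (FDR = 1.4e-04) in AO and 2.36 ± 0.21 (FDR = 1.8e-05) in NM, and in NM *fgf7* fell again by 1.80 ± 0.19 to 24 hpt (FDR = 4.5e-05). These 5 calls held in all 23 alternatives.

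*fgf4-b* was also lower in both untreated organs than in EP, and *fgf16* in NM. *fgf16*, an FGF9 subfamily ligand, stood at 2.58 and 3.02 CPM in EP, 0.593 and 0.740 in untreated NM, 2.67 and 3.02 in NM at 12 hpt and 0.776 and 1.53 in NM at 24 hpt, while the AO libraries were between 1.40 and 2.33. Untreated NM was the lowest group, and it differed from EP by -2.02 ± 0.38 (FDR = 0.0021) and rose by 2.06 ± 0.37 at 12 hpt (FDR = 0.0021). *fgf4-b*, a member of the FGF4 subfamily known from early *Xenopus* development, stood at 2.92 and 2.04 CPM in EP and at 0.761 and 0.226 in untreated AO. Untreated NM held 0.458 and 0.596 CPM of it, and all treated libraries were between 0.414 and 1.07. The untreated organs differed from EP in *fgf4-b* by -2.34 ± 0.44 (FDR = 0.002) and -2.33 ± 0.46 (FDR = 0.003). DESeq2 did not call the 2 *fgf16* or the 2 *fgf4-b* differences. The *fgf16* calls were also lost without either untreated NM library, EP replicate 2 (against EP) or 12 hpt NM replicate 2 (at 12 hpt). The *fgf4-b* calls were lost without EP replicate 1, untreated AO replicate 2 (for AO) or either untreated NM library (for NM).

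The muscle list moved with these ligands in part. It summed to 23946–24307 CPM in EP, 200–215 in untreated AO and 49.8–51.5 in untreated NM, and to 3978–3982 in AO and 8063–8085 in NM at 12 hpt. At 24 hpt it was 9520–9650 CPM in AO, where *fgf7* was lower than at 12 hpt in both libraries (-0.91, under the fold threshold), and 196–206 in NM. Against EP, 8 of its 9 contigs were lower in untreated AO and 9 of 9 in untreated NM, and none of its markers found was at 0 in any group. *fgf6*, a ligand of skeletal muscle, stood at 1.41 and 3.11 CPM in EP, at 1.81 and 0.788 in NM at 12 hpt and at 0 in both NM libraries at 24 hpt. EP was at least 13.9-fold above the floor of 3 counts over the 24 hpt NM group, a pair of groups that was not tested. It differs in treatment, time and body region. Of the comparisons that were tested, none passed for *fgf6*. The part of muscle in the levels of *fgf7*, *fgf16*, *fgf4-b* and *fgf6* was not tested.

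The *fgf18* ligand, known for its role in cartilage and bone, had 2 contigs that fell together in AO at 12 hpt. DN112385_c2_g2 went from 10.6 and 8.74 CPM to 4.69 and 4.14, a change of -1.14 ± 0.18 (FDR = 8.2e-04), and was 7.14 and 5.69 at 24 hpt. DN100194_c3_g1 went from 9.56 and 12.7 CPM to 4.77 and 5.21, a change of -1.14 ± 0.21 (FDR = 0.0021), and was 10.1 and 8.82 at 24 hpt. In both contigs the 12 hpt libraries of AO were below the other AO libraries. In NM the first contig was 5.18 and 6.09 CPM untreated, 5.04 and 4.67 at 12 hpt and 4.66 and 4.31 at 24 hpt, and the second was 9.99 and 14.9, 7.50 and 6.27, and 7.89 and 7.85. EP held 13.5 and 10.4 CPM of the first contig and 6.60 and 7.13 of the second. The first contig was lower in untreated NM than in EP (-1.06 ± 0.18, FDR = 0.0011), while the second was 0.86 higher there, under the fold threshold. With both contigs summed, the difference between untreated NM and EP was lost (-0.08). It was also lost without untreated NM replicate 1 or EP replicate 1. The fall in AO was not called without 12 hpt AO replicate 2 for either contig, without untreated AO replicate 1 for the first, and without untreated AO replicate 2 or 12 hpt AO replicate 1 for the second. The cartilage list (5 of 5 symbols found, none at 0) was highest in EP, at 8147–8436 CPM. The untreated, 12 hpt and 24 hpt libraries held 5533–5977, 3904–4124 and 4024–4204 CPM of it for AO, and 6144–6204, 4213–4505 and 2473–2627 CPM for NM. Of its 14 tested contigs, 2 were lower and 3 higher in AO at 12 hpt, and its part in the level of *fgf18* was not tested. The remaining secreted ligands, *fgf1* (1.35 to 3.18 CPM) and *fgf20* (0.810 to 1.71 CPM), were never called.

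**Figure D2:**
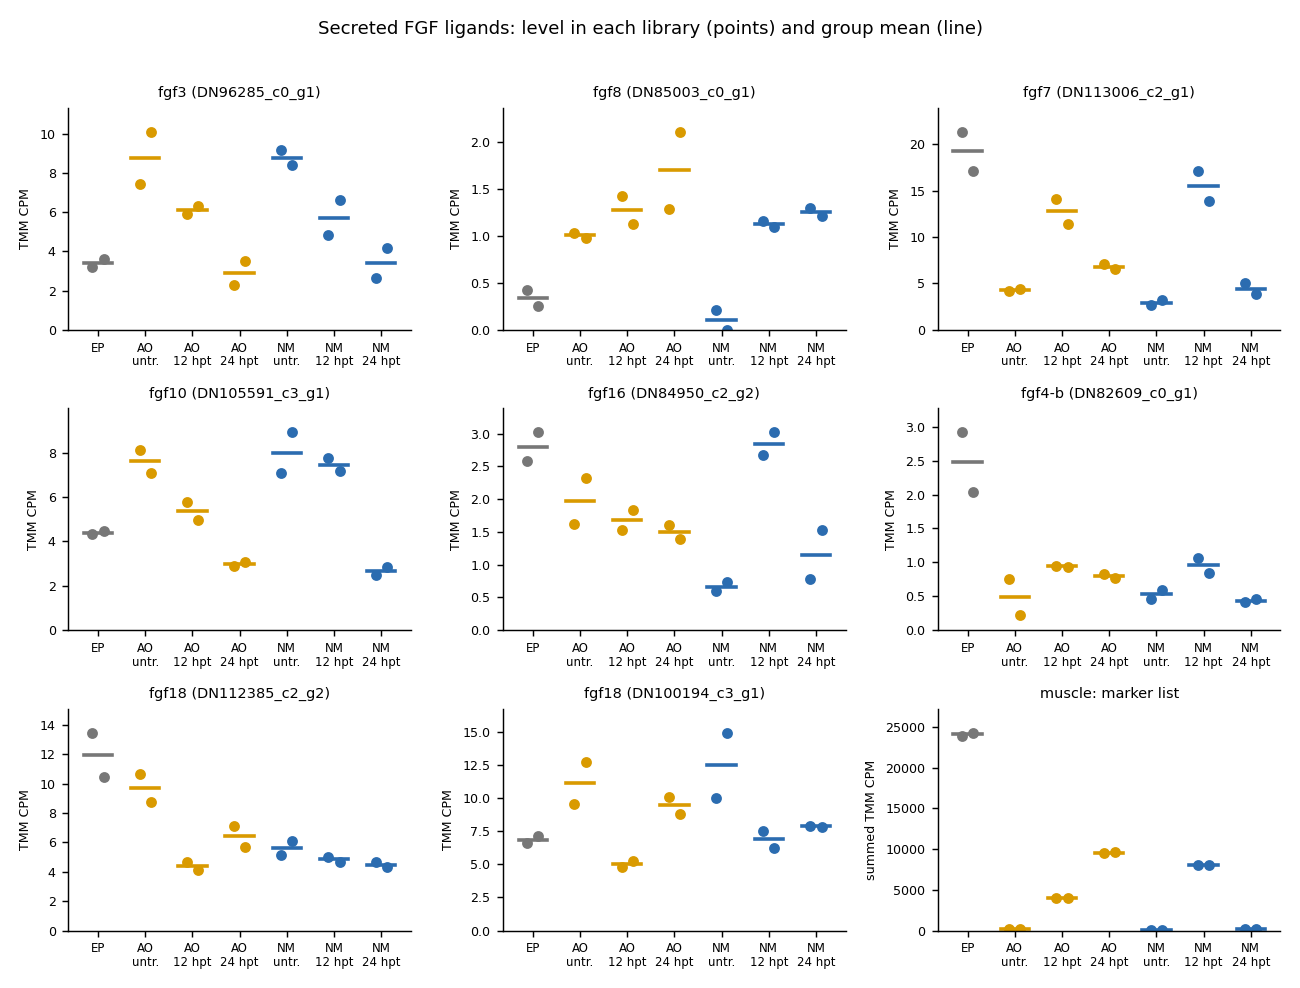
TMM CPM (y axis, linear from 0) of 8 secreted ligand contigs in each library (points) with the group mean (line), by tissue and hours post treatment (x axis), and the summed level of the muscle marker list in the last panel. *fgf3* and *fgf10* step down from untreated to 24 hpt in both organs, while *fgf7* is highest in EP (21.3 and 17.1 CPM) and at 12 hpt.

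All 3 contigs of FGF homologous factors had positive differences after neomycin in both organs, and 2 of them were called. *fgf13* stood in AO at 5.29 and 5.59 CPM before treatment, 15.9 and 21.7 at 12 hpt and 21.2 and 27.6 at 24 hpt. Its NM values were 1.57 and 1.80 CPM untreated, 8.53 and 9.52 at 12 hpt and 25.2 and 29.95 at 24 hpt, with 7.73 and 9.13 in EP. Untreated NM was the lowest group and the 24 hpt groups of the organs overlapped. The rise was 1.78 ± 0.19 (FDR = 7.0e-05) in AO and 2.44 ± 0.27 (FDR = 9.0e-05) in NM at 12 hpt. At 24 hpt it was 2.16 ± 0.19 (FDR = 1.1e-05) in AO and 4.04 ± 0.24 (FDR = 3.7e-07) in NM. Untreated AO was 1.71 ± 0.28 above untreated NM (FDR = 0.002) and untreated NM was -2.34 ± 0.28 from EP (FDR = 9.9e-05). The difference between AO and NM was still 1.05 ± 0.19 at 12 hpt (FDR = 0.005), and the response of AO at 24 hpt differed from that of NM by -1.89 ± 0.33 (FDR = 0.0029). The difference between the untreated organs and that of the responses were lost when any 1 of the 4 untreated organ libraries was left out, and that at 12 hpt when 12 hpt AO replicate 2 or a 12 hpt NM library was.

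*fgf14* (DN116380_c2_g1) followed the same order. It stood in AO at 2.65 and 2.71 CPM before treatment, 6.78 and 7.06 at 12 hpt and 8.61 and 9.69 at 24 hpt. In NM it stood at 0.604 and 0.585 CPM untreated, at 3.15 and 3.55 at 12 hpt and at 13.1 and 12.8 at 24 hpt, with 1.90 and 1.15 in EP. Each later group was above the earlier ones in both organs, with no overlap. The rise was 1.36 ± 0.16 (FDR = 1.2e-04) and 1.77 ± 0.16 (FDR = 1.1e-05) in AO, and 2.57 ± 0.25 (FDR = 3.6e-05) and 4.51 ± 0.21 (FDR = 7.0e-08) in NM, at 12 and 24 hpt. Untreated AO was 2.25 ± 0.25 above untreated NM (FDR = 2.4e-04), AO at 12 hpt was 1.03 ± 0.16 above NM (FDR = 0.0024), and the responses at 24 hpt differed by -2.74 ± 0.28 (FDR = 1.5e-04). From 12 to 24 hpt *fgf14* rose by 1.94 ± 0.15 in NM (FDR = 6.2e-06). The difference at 12 hpt was lost in DESeq2 and when any 1 of the 4 libraries compared was left out, and with both *fgf14* contigs summed none of the 3 differences between the organs was called (1.58 untreated, 0.95 at 12 hpt and -2.03 for the responses, FDR = 0.019, 0.039 and 0.01). A second *fgf14* contig, between 0 and 2.55 CPM, was never called, on 116 expected counts over all libraries. Its differences from untreated were 2.16 and 2.81 in AO and 0.83 and 1.89 in NM, at 12 and 24 hpt.

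Spred proteins bind RAS regulators and hold back the activation of RAF. A contig of *spred1* and a contig of *spred2* rose in both organs, by more in NM at 24 hpt than any other tested member. The *spred1* contig DN87325_c6_g1 stood in AO at 2.12 and 1.43 CPM before treatment, 12.2 and 16.9 at 12 hpt and 16.9 and 19 at 24 hpt. The NM libraries held 0.425 and 0.298 CPM untreated, 4.67 and 6.23 at 12 hpt and 25.3 and 31.3 at 24 hpt, and it had no count in EP. It rose by 3.04 ± 0.26 (FDR = 2.8e-05) and 3.35 ± 0.25 (FDR = 8.8e-06) in AO and by 3.84 ± 0.43 (FDR = 1.6e-04) and 6.21 ± 0.34 (FDR = 5.6e-07) in NM, at 12 and 24 hpt. The untreated NM level under these rises rested on 5.75 expected counts over the group. Untreated AO was at least 8.74-fold above the floor of 3 counts over the EP group (FDR = 7.8e-04). NM at 24 hpt was at least 140-fold above it, a pair of groups that was not tested. At 12 hpt it was 1.40 ± 0.23 higher in AO than in NM (FDR = 0.0039), a call lost without 12 hpt AO replicate 2 or either 12 hpt NM library. The responses at 24 hpt differed by -2.86 ± 0.54 (FDR = 0.0057), a call lost in 7 of 22 alternatives, among them the omission of untreated AO replicate 1, 24 hpt NM replicate 2, or either library of untreated NM or of AO at 24 hpt.

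The *spred2* contig DN103976_c2_g1 stood in AO at 0.903 and 1.13 CPM before treatment, 6.62 and 3.78 at 12 hpt and 6.81 and 5.97 at 24 hpt. In NM it had no count untreated, 2.54 and 1.77 CPM at 12 hpt and 11.3 and 9.36 at 24 hpt, with 0.408 and 0 in EP. All treated libraries were above all untreated ones. The rise in AO was 2.38 ± 0.44 (FDR = 0.0027) at 12 hpt and 2.69 ± 0.43 (FDR = 8.9e-04) at 24 hpt. Against a floor of 3 counts over the untreated NM group, NM was at least 11.4-fold higher at 12 hpt and at least 55.5-fold higher at 24 hpt (FDR = 0.0018 and 2.1e-05). Untreated AO, on 21 counts, was 5.51-fold above the same floor, but this difference between the untreated organs was not called. Such ratios to a floor leave out the counting error of the higher group. The call in AO was lost at 12 hpt without either untreated AO library or 12 hpt AO replicate 1 and at 24 hpt without untreated AO replicate 1, and that in NM at 12 hpt without untreated NM replicate 2. From 12 to 24 hpt it rose by 2.23 ± 0.39 in NM (FDR = 0.0016), a call lost without 12 hpt NM replicate 2 or 24 hpt NM replicate 1. The difference of the responses at 24 hpt (FDR = 0.0096) was called in 10 of 22 alternatives, and in none of those that left out an untreated, 12 hpt NM or 24 hpt library of the organs.

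The other contigs of these names did not follow. The second *spred1* contig was between 7.63 and 15.1 CPM and the other 2 *spred2* contigs between 13.7 and 43.2 CPM in all libraries, and none of the 3 was called. The one with the highest mean CPM, *spred2* DN88453_c1_g1, was 24.5 and 19.97 CPM in EP, 21.5 and 25.0 in untreated AO, 36.9 and 31.8 in AO at 12 hpt and 24.4 and 21.3 at 24 hpt. In NM it was 35.9 and 22.7 CPM untreated, 43.2 and 30.1 at 12 hpt and 28.4 and 13.7 at 24 hpt, with replicates that overlapped between groups. With contigs of a name summed, every call of *spred2* was lost: its differences from untreated were 0.55 and 0.15 in AO and 0.30 and -0.06 in NM, at 12 and 24 hpt, that from 12 to 24 hpt in NM was -0.36 and that of the responses at 24 hpt 0.21. For *spred1*, the rises at 24 hpt (1.10 in AO and 1.61 in NM) and from 12 to 24 hpt in NM (1.35) were still called. Its differences were then under the fold threshold at 12 hpt (0.85 in AO and 0.26 in NM), between untreated AO and EP (0.72), between AO and NM at 12 hpt (0.65) and between the responses at 24 hpt (-0.51).

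**Figure D3:**
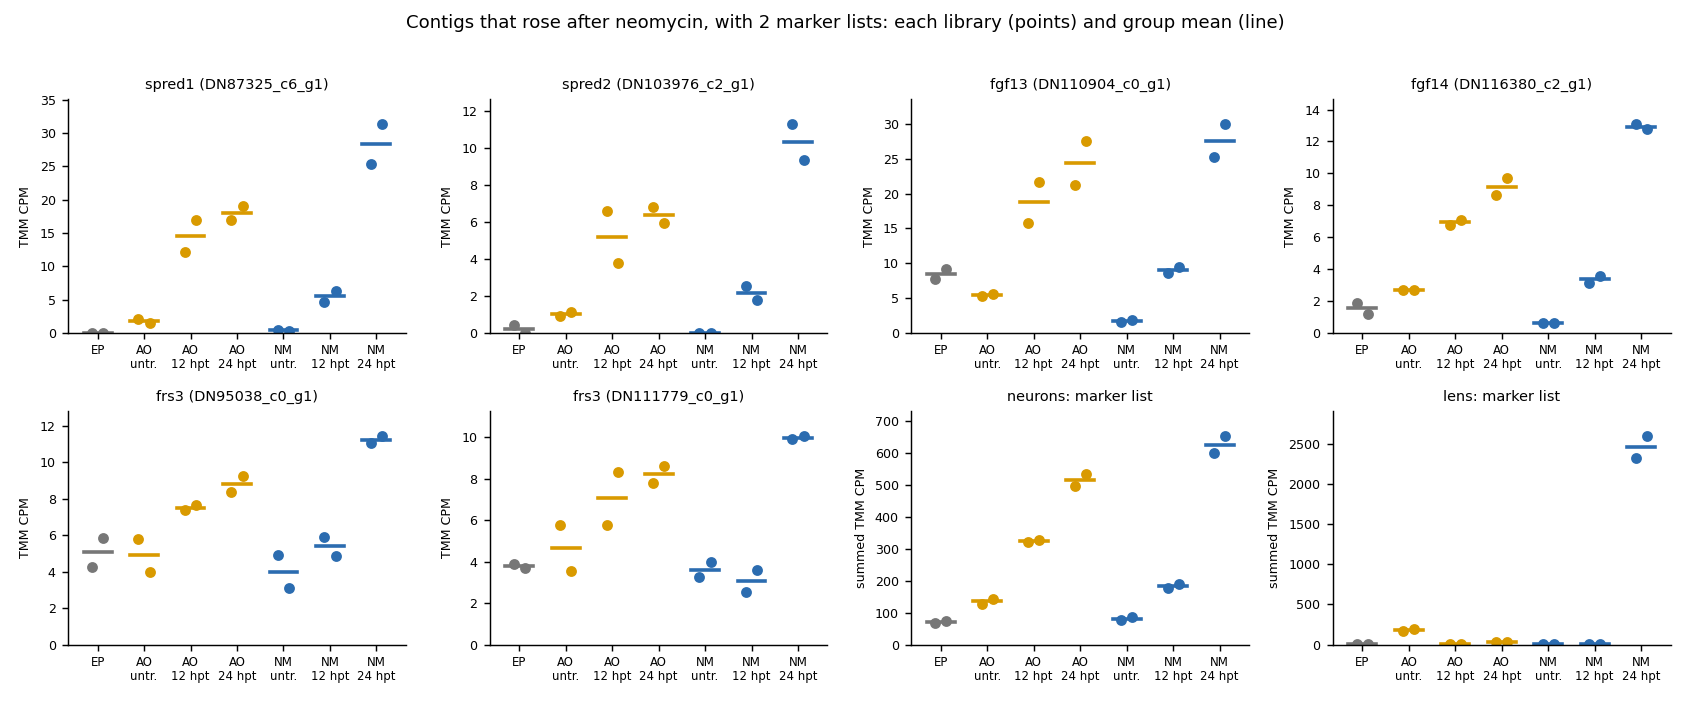
TMM CPM (y axis, linear from 0) of 2 Spred contigs, 2 FGF homologous factors and 2 *frs3* contigs in each library (points) with the group mean (line), beside the summed levels of the neuron and lens marker lists, by tissue and hours post treatment (x axis). The Spred contigs, *fgf13* and *fgf14* climb in both organs and the neuron list climbs with them, from 77.3–86.4 CPM in untreated NM to 601–653 in NM at 24 hpt.

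The neuron list was also higher after neomycin in both organs. In AO its sum was 129–143 CPM without treatment, 323–329 at 12 hpt and 498–535 at 24 hpt, and in NM 77.3–86.4, 179–189 and 601–653. Of its 13 tested contigs, 9 and 11 rose in AO and 8 and 11 in NM, at 12 and 24 hpt, and 1 fell in NM at 24 hpt. The response of AO at 24 hpt was smaller than that of NM in 5 of these 13 contigs, with a median log2 difference of -1.88. In EP the list was at 68.8–74.2 CPM, its lowest, and *fgf13* there stood at 7.73 and 9.13 CPM, above both untreated organs. None of the neuron markers found was at 0 in any group. The lens list summed to 6.74–8.36 CPM in untreated NM, 9.03–10.4 at 12 hpt and 2326–2591 at 24 hpt, when all 8 contigs had risen. In AO it was 173–191 CPM untreated, 6.94–8.39 at 12 hpt and 27.3–31.8 at 24 hpt. The part of neurons or lens in the rise of *fgf13*, *fgf14*, *spred1* and *spred2* was not tested.

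Among the receptors, *fgfr2* fell in AO. It stood in AO at 246 and 238 CPM before treatment, 107 and 102 at 12 hpt and 102 and 98.2 at 24 hpt. In NM it stood at 142 and 136 CPM untreated, at 129 and 117 at 12 hpt and at 99.4 and 100.3 at 24 hpt, with 174 and 186 in EP. Untreated AO was above all other libraries, EP included, and all 24 hpt libraries of both organs lay close together. The fall in AO was -1.20 ± 0.07 (FDR = 1.5e-06) at 12 hpt and -1.27 ± 0.07 (FDR = 5.9e-07) at 24 hpt, and it held in all 23 alternatives. In NM the differences were -0.18 and -0.48 ± 0.07 (FDR = 2.9e-04 for the latter), under the fold threshold. The response at 12 hpt was 1.03 ± 0.10 lower in AO than in NM (FDR = 4.2e-04), and 1.79% of all genes were called in this test of the 2 responses (0.405% higher and 1.39% lower). This call was lost with DESeq2 size factors, in DESeq2's own test, in a fit of the groups compared alone and without any of 3 libraries (12 hpt AO replicate 2, untreated NM replicate 2 and 12 hpt NM replicate 1), where the difference was close to the fold threshold, the smallest being -0.95, and the FDR was 0.011 in the fit of the groups compared alone. Untreated AO was 0.80 ± 0.07 above NM (FDR = 6.0e-05). In AO the lens list (173–191, 6.94–8.39 and 27.3–31.8 CPM) and the hair cell list (327–353, 191–196 and 121–127 CPM) were also lower at 12 and 24 hpt than untreated. Their part in the fall was not tested.

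The *fgfr1* receptors did not pass in any comparison. *fgfr1a* stood at 46.6 and 45.8 CPM in untreated AO, 23.4 and 25.3 at 12 hpt and 23.6 and 25.9 at 24 hpt, and at 33.3 and 28.8, 29.3 and 23.4, and 19.8 and 17.2 in NM, with 43.8 and 42.6 in EP. Its untreated AO libraries were well above the treated ones, but the changes of -0.92 ± 0.12 (FDR = 2.1e-04) and -0.90 ± 0.12 (FDR = 1.6e-04) were under the fold threshold. *fgfr1* stood at 65.2 and 71.8 CPM in untreated AO, 48.1 and 49.5 at 12 hpt and 43.4 and 62.1 at 24 hpt, and at 43.6 and 62.2, 47.2 and 59.7, and 35.9 and 45.6 in NM, with 76.9 and 76.8 in EP. The replicates of *fgfr1* lay apart in AO at 24 hpt and in all NM groups, and its treated AO libraries were all below the untreated ones.

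The 3 contigs of *fgfr4* were low in untreated NM. DN103140_c1_g3 stood at 6.88 and 9.30 CPM in untreated NM, 19.1 and 15.5 at 12 hpt and 21.1 and 17.1 at 24 hpt, and at 12.2 and 10.6, 12.3 and 13.4, and 21.4 and 23.8 in AO, with 19.1 and 17.7 in EP. DN110065_c1_g2 stood at 6.26 and 7.70 CPM in untreated NM, 14.6 and 11.7 at 12 hpt and 17.3 and 16.5 at 24 hpt, and at 10.5 and 10.3, 12.8 and 12.7, and 19.8 and 15.4 in AO, with 16 and 14.0 in EP. DN112176_c1_g1 stood at 8.41 and 5.86 CPM in untreated NM, 12.1 and 14.1 at 12 hpt and 16.4 and 15.8 at 24 hpt, and at 11.6 and 14.1, 11.7 and 11.5, and 18.6 and 17 in AO, with 14.2 and 13.6 in EP. In each contig both untreated NM libraries were below all other 12 libraries. The rise in NM at 24 hpt was 1.22 ± 0.17 (FDR = 1.9e-04), 1.26 ± 0.16 (FDR = 1.0e-04) and 1.19 ± 0.16 (FDR = 1.5e-04) for the 3 contigs, and at 12 hpt only the first passed, at 1.08 ± 0.18 (FDR = 0.0011). In AO at 24 hpt the first contig was 0.99 higher than untreated, just under the fold threshold. Against EP, untreated NM was lower in the first 2 contigs (-1.17 ± 0.17, FDR = 5.0e-04, and -1.09 ± 0.17, FDR = 5.7e-04), and the third was at -0.99. Without untreated NM replicate 1 neither difference from EP nor the rise of the first contig at 12 hpt was called, and the second contig also lost its call against EP without EP replicate 1. The rise at 12 hpt was not called without 12 hpt NM replicate 1 or with contigs summed, and that of the third contig at 24 hpt not without untreated NM replicate 2. Summed over the 3 contigs, *fgfr4* was 21.5 and 22.9 CPM in untreated NM and 54.8 and 49.4 at 24 hpt. The blood list (4 of 5 symbols found, none at 0) was also lowest in untreated NM, at 574–716 CPM, against 4079–4648 at 12 hpt, 1187–1503 at 24 hpt, 1574–2426 in the AO groups and 4009–5221 in EP. The list of supporting cells (4 of 4 symbols found) was 615–620 CPM in untreated NM, 987–1033 at 12 hpt and 1040–1042 at 24 hpt, 774–1219 in the AO groups and 791–842 in EP. The part of these cell types in the level of *fgfr4* was not tested.

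The 3 contigs of *fgfr3* were not called in any comparison. DN115531_c1_g1 stood at 16 and 12.5 CPM in untreated AO, 11.7 and 10.1 at 12 hpt and 10.3 and 10.2 at 24 hpt, and at 15.3 and 11.9, 11.6 and 9.87, and 14.5 and 11.6 in NM, with 8.69 and 6.46 in EP. DN115531_c1_g4 stood at 18.7 and 18.3 CPM in untreated AO, 11.1 and 11.7 at 12 hpt and 14.6 and 14.3 at 24 hpt, and at 15.8 and 17.3, 13.6 and 12.9, and 17.5 and 15.8 in NM, with 10.4 and 13.9 in EP. EP was the lowest group of the first of these contigs, and the log2 differences of untreated AO and NM from it were 0.91 and 0.83. The third, DN78739_c2_g1, was at 0.555 and 3.08 CPM in untreated AO, 4.64 and 2.36 at 12 hpt and 1.09 and 2.62 at 24 hpt, and at 0.782 and 1.90, 0.791 and 2.40, and 2.06 and 3.21 in NM, with 2.23 and 2.19 in EP. Its replicates lay far apart in most groups, and the groups overlapped.

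**Figure D4:**
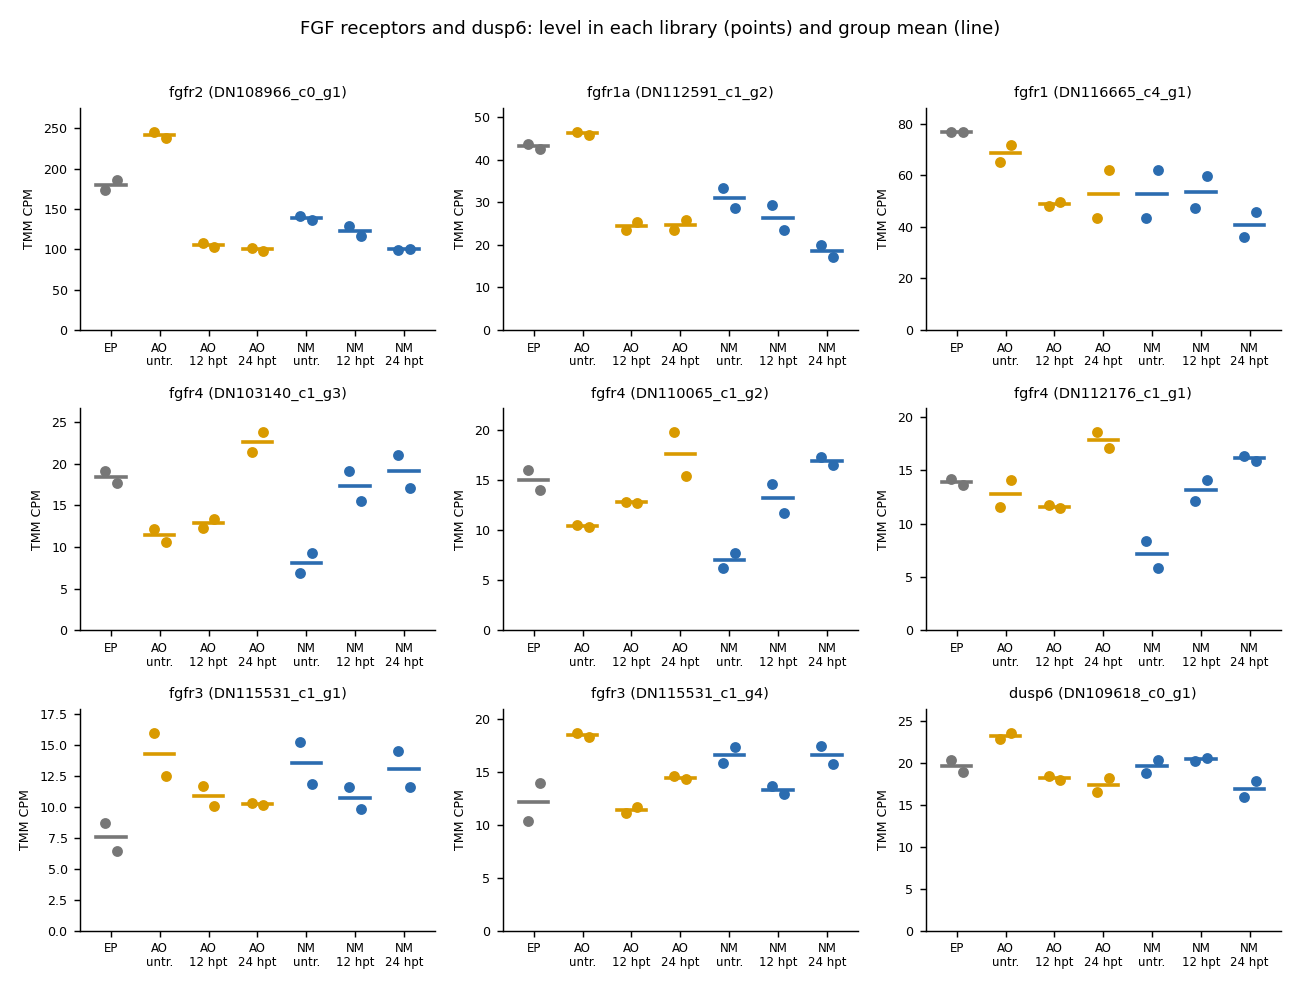
TMM CPM (y axis, linear from 0) of 8 receptor contigs and *dusp6* in each library (points) with the group mean (line), by tissue and hours post treatment (x axis). *fgfr2* drops in AO after neomycin, the 3 *fgfr4* contigs are lowest in untreated NM, and *dusp6* stays between 15.9 and 23.7 CPM.

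The adaptors link the activated receptor to the RAS cascade. The *frs3* contig DN111779_c0_g1 stood at 3.25 and 3.98 CPM in untreated NM, 2.52 and 3.59 at 12 hpt and 9.92 and 10.1 at 24 hpt, and at 5.77 and 3.54, 5.80 and 8.35, and 7.79 and 8.64 in AO, with 3.88 and 3.71 in EP. The contig DN95038_c0_g1 stood at 4.90 and 3.09 CPM in untreated NM, 5.91 and 4.87 at 12 hpt and 11.1 and 11.4 at 24 hpt, and at 5.79 and 4, 7.37 and 7.64, and 8.39 and 9.23 in AO, with 4.26 and 5.86 in EP. In both contigs NM at 24 hpt was above every other library. The rise in NM at 24 hpt was 1.46 ± 0.26 (FDR = 8.5e-04) and 1.52 ± 0.24 (FDR = 4.1e-04), and that from 12 to 24 hpt was 1.69 ± 0.26 (FDR = 5.9e-04) and 1.06 ± 0.23 (FDR = 0.0041), the latter lost when any 1 of the 4 libraries compared was left out. The lens and neuron lists were also highest in that group, and their part in the rise was not tested. *frs2*, the adaptor contig with the highest mean CPM, was 11.5 and 10.2 CPM in untreated AO, 16.2 and 17.2 at 12 hpt and 16 and 17.7 at 24 hpt, and 16.2 and 14.4, 17.1 and 16.1, and 15.7 and 16.4 in NM, with 14.8 and 16.3 in EP. Untreated AO was the lowest group of *frs2*, and its rise of 0.62 ± 0.10 at 12 hpt (FDR = 0.0011) was under the fold threshold.

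Of the feedback inhibitors other than Spred, only an *il17rd* contig and *spry3* were called, and *spry3* only in the untreated organs against EP. The *il17rd* contig DN107544_c4_g1 stood at 11.5 and 10.1 CPM in untreated AO, 5.19 and 4.89 at 12 hpt and 3.16 and 4.93 at 24 hpt. NM held 13.4 and 13.6 CPM untreated, 5.88 and 5 at 12 hpt and 5.44 and 4.18 at 24 hpt, with 4.20 and 4.03 in EP. The untreated organs were above all other libraries. The difference from EP was 1.38 ± 0.20 (FDR = 3.8e-04) in AO and 1.70 ± 0.20 (FDR = 9.6e-05) in NM. The fall was -1.10 ± 0.19 (FDR = 0.0013) and -1.41 ± 0.19 (FDR = 2.1e-04) in AO and -1.33 ± 0.19 (FDR = 4.7e-04) and -1.50 ± 0.19 (FDR = 9.0e-05) in NM, at 12 and 24 hpt, and the call in AO at 12 hpt was lost without untreated AO replicate 1 or 12 hpt AO replicate 2. The hair cell list stood near its untreated level in NM at 24 hpt, where this contig was low, and its part in the level was not tested. The second *il17rd* contig was between 10.1 and 18.3 CPM and was not called, and with the 2 contigs summed all 6 calls of *il17rd* were lost, with differences of 0.26 to 0.32 from EP.

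*spry3* stood at 8.26 and 9.81 CPM in EP, above all other libraries, at 3.34 and 5.28 in untreated AO, 5.66 and 5.62 at 12 hpt and 4.83 and 5.02 at 24 hpt. In NM it was 3.73 and 3.96 CPM untreated, 6.81 and 6.09 at 12 hpt and 3.72 and 3.87 at 24 hpt. The untreated organs differed from EP by -1.06 ± 0.19 (FDR = 0.0015) in AO and -1.22 ± 0.20 (FDR = 9.4e-04) in NM. Both calls were lost without EP replicate 2, and that in AO also without untreated AO replicate 1. The other 3 Sprouty genes, which are common readouts of FGF activity, were not called. *spry1*, with the highest mean CPM of them, was 45.0 and 40.4 CPM in untreated AO, 44.7 and 39.8 at 12 hpt and 35.6 and 32.5 at 24 hpt, and 38.9 and 36.9, 49.9 and 49.96, and 28.3 and 26.6 in NM, with 48.7 and 45.9 in EP. NM at 24 hpt was its lowest group, at -0.86 ± 0.09 from NM at 12 hpt (FDR = 4.3e-05), under the fold threshold. The differences of *spry2* lay between -0.17 and 0.42 and those of *spry4* between -0.53 and 0.39.

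*dusp6*, the ERK phosphatase that is commonly used as a readout of the cascade, was 22.9 and 23.7 CPM in untreated AO, 18.5 and 18 at 12 hpt and 16.6 and 18.2 at 24 hpt. In NM it was 18.9 and 20.4 CPM untreated, 20.3 and 20.6 at 12 hpt and 15.9 and 17.9 at 24 hpt, with 20.3 and 18.9 in EP. Untreated AO was its highest group, but all its differences lay between -0.42 and 0.25, with -0.42 ± 0.09 (FDR = 0.0032) for AO at 24 hpt.

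Of the ETS factors, only the *etv5* contig DN115796_c1_g1 was called. It stood at 24.5 and 27.3 CPM in untreated AO, 51.1 and 69.8 at 12 hpt and 29.98 and 43.0 at 24 hpt. In NM it stood at 36.1 and 44.4 CPM untreated, 56.3 and 71.5 at 12 hpt and 30.6 and 46.9 at 24 hpt, with 45.9 and 57.2 in EP. Both organs had their highest libraries at 12 hpt, and the rise passed in AO at 1.23 ± 0.25 (FDR = 0.0037). That call was lost in 4 of 23 alternatives: with contigs of a name summed (0.95), and without either untreated AO library or 12 hpt AO replicate 2. The second *etv5* contig was between 7.96 and 13.4 CPM and *etv4* between 5.51 and 9.82 CPM, and the *etv1* contig DN105196_c2_g3 was at 22.6 and 21.2 CPM in untreated AO and 11.2 and 10.8 in EP. Its difference of 0.99 ± 0.12 (FDR = 8.9e-05) was just under the fold threshold, and the second *etv1* contig was at 0.25 to 1.08 CPM. The *fgfr1op* contig DN116707_c2_g5, the one of the pair with the higher mean CPM, was 12.9 and 14.7 CPM in untreated AO, 12.7 and 12.0 at 12 hpt, 10.5 and 8.63 at 24 hpt, and 11.9 and 10.1, 12.9 and 13, and 9.68 and 9.66 in NM, with 11 and 10.6 in EP. Neither *fgfr1op* contig was called.

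**Figure D5:**
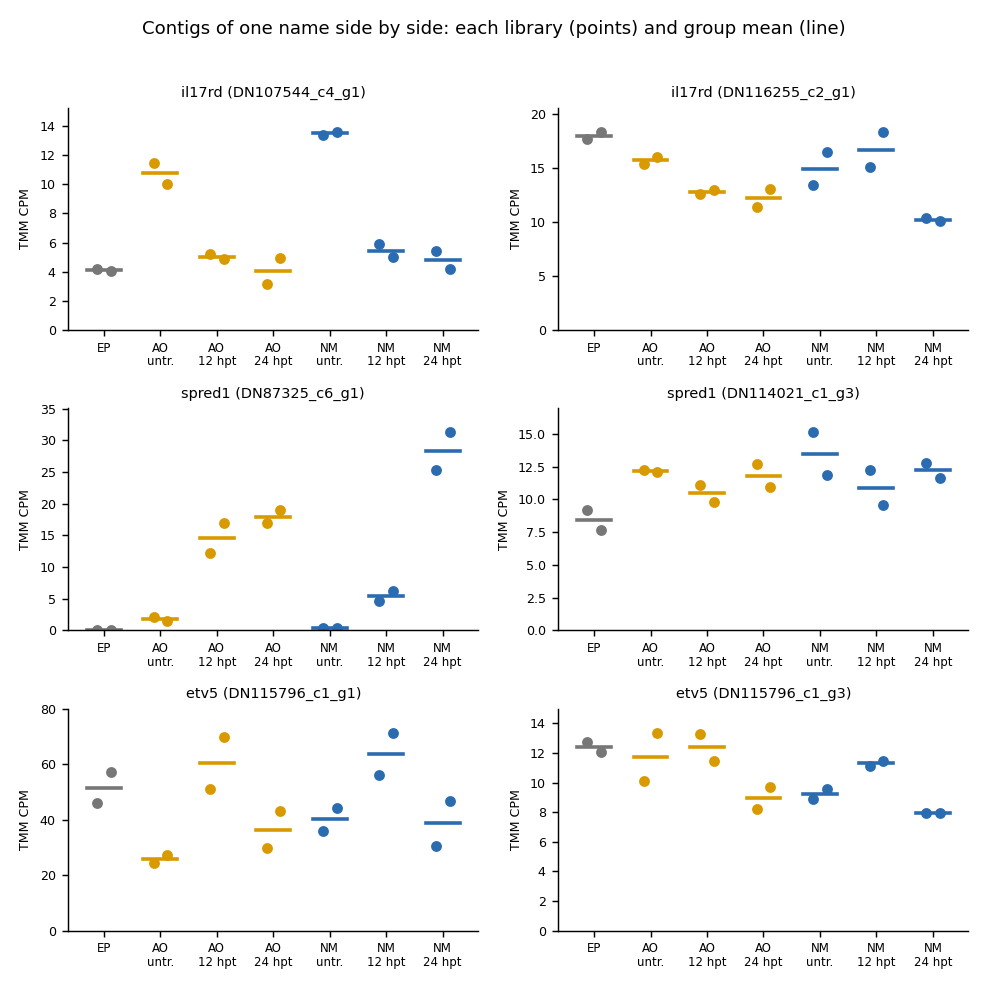
TMM CPM (y axis, linear from 0) of 2 contigs each of *il17rd*, *spred1* and *etv5* in every library (points) with the group mean (line), by tissue and hours post treatment (x axis). In each row the left contig was called after neomycin and the right contig of the same name was not; for *spred1* the left contig spans 0 to 31.3 CPM and the right one 7.63 to 15.1.

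The responses of AO and NM at 24 hpt were compared with each other as well. *fgf13*, *fgf14*, *spred1* and *spred2* all responded less in AO, and none responded more. These 4 calls were 8.70% of the tested members, against 7.68% of all genes (2.07% higher and 5.61% lower). Leaving out either untreated NM library or untreated AO replicate 1 left 1 call, and leaving out untreated AO replicate 2, either 24 hpt AO library or 24 hpt NM replicate 2 left 2.

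The wider FGF pathway was given by a list of 75 symbols, of which 65 were found in 112 contigs (109 tested), and 30 contigs (27.5%, against 36.3% of all genes) were called at least once. Its median log2 fold change lay between -0.25 and 0.17 in the 13 comparisons. In untreated AO, 7 exceeded EP and 3 were lower, which is 9.17% of the list against 14.3% of all genes. In untreated NM, 5 exceeded EP and 5 were lower, 9.17% against 13.2%. After neomycin, 4 rose and 5 fell in AO at 12 hpt (8.26% against 12.0% of all genes) and 3 rose and 4 fell at 24 hpt (6.42% against 16.0%). In NM, 6 rose and none fell at 12 hpt (5.50% against 12.4%), and 10 rose and 7 fell at 24 hpt (15.6% against 21.2%). From 12 to 24 hpt, none rose and 6 fell in AO (5.50% against 2.79% of all genes, 1.16% lower), of which 5 belonged to the 16 tested ERK phosphatases and immediate early genes. In NM 4 rose and 3 fell in that interval (6.42% against 15.3%). Of the 16 tested contigs of the kinases RAF, MEK and ERK, 2 were called in NM at 24 hpt (12.5% against 21.2% of all genes). Only 1 (6.25%) was called between untreated AO and NM (6.02% of all genes) and in NM at 12 hpt (12.4%). The same share was called for the responses at 12 hpt (1.79% of all genes) and 24 hpt (7.68%), and none in the other comparisons.

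The immediate early gene *egr1*, which ERK induces within minutes to hours, was 59.9 and 69.3 CPM in untreated AO, 253 and 262 at 12 hpt and 79.8 and 80.1 at 24 hpt. In NM it was 87.3 and 95.7 CPM untreated, 202 and 219 at 12 hpt and 109 and 107 at 24 hpt, with 136 and 146 in EP. The 12 hpt libraries of both organs were above all others, and the rises were 1.99 (FDR = 2.5e-07) in AO and 1.20 (FDR = 4.7e-06) in NM. *fos* rose in AO at 12 hpt by 1.00 (FDR = 2.2e-06), from 82.4 and 77.0 to 160.0 and 159.7 CPM, while in NM it was 139 and 138 CPM untreated and 107 and 112 at 12 hpt. *ier3*, another immediate early gene, was 69.9 and 70.5 CPM in untreated AO and 11.8 and 13.6 at 24 hpt (-2.46, FDR = 7.4e-07), and in NM it fell from 62.1 and 68.7 to 23.6 and 31.4 (-1.25, FDR = 3.0e-05).

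*fgfbp2*, listed with the ligand carriers by its name, was 4.61 and 4.03 CPM in EP, 33.3 and 32.2 in untreated AO and 22.5 and 21.7 in untreated NM. Both organs were above EP, by 2.91 (FDR = 9.7e-07) and 2.34 (FDR = 5.7e-06). It rose further to 102 and 85.6 CPM in AO and 107 and 87.6 in NM at 24 hpt. *flrt1*, a membrane protein that binds FGF receptors, rose in NM from 0.213 and 0.287 CPM to 3.22 and 3.13 at 12 hpt and 5.82 and 5.01 at 24 hpt. Its rise at 24 hpt was 4.07 (FDR = 6.4e-07) in NM and 1.92 (FDR = 3.6e-05) in AO. The untreated NM level, well under that of the other organ, rests on few counts. The 2 contigs of *ncam1*, a neural adhesion molecule that can engage FGF receptors, rose in NM at 24 hpt by 2.11 (FDR = 1.5e-07) and 2.57 (FDR = 3.6e-07), with the neuron list as given above. *ets2*, an ETS factor regulated by ERK, fell at 24 hpt by 1.15 in both organs (FDR = 7.4e-07 in AO and 3.5e-07 in NM).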

How the data were processed

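Reads were cleaned by the authors (Trimmomatic 0.38) and joined into 1 Trinity assembly of all libraries. Contigs that matched a Swiss-Prot or sterlet protein were kept, and RSEM estimated their counts. The values are expected counts per assembled gene, as the authors deposited them, not scaled to library size. For RSEM, no version is given in the sources used here. Names come from proteins of other species. Of 23448 genes, 801 had no annotation, and all 14 columns of values were used.

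Rounded expected counts were fitted by the quasi-likelihood method of edgeR 4.0.16 (R 4.3.3), after TMM scaling and a low-count filter (filterByExpr), with a mean for each of 7 groups over all 14 libraries (common biological coefficient of variation 0.121). The Benjamini-Hochberg adjustment covered 21978 genes. The study used edgeR's exact test with the same 2 thresholds, which is an alternative here. The others were DESeq2 1.42.0 (size factors and Wald test), no filter, CPM above 1 in 2 libraries, the groups compared alone, FDR under 0.05, the replicate block, contigs of a name summed, and each library left out. An FDR under 0.05 reads the main fit at a looser threshold, so it can add calls but not lose any. The numbers of alternatives given above count it, and also omissions of libraries outside the comparison. SE is the log2 fold change divided by the root of the F statistic. With 2 against 2 libraries, a two-sided permutation test cannot go below p = 0.333, so none was run.

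Named are all called contigs, *fgf3*, *fgf8*, all tested receptors, the contig with the highest mean CPM of each role, and at most 8 contigs of the wider list by smallest FDR. Other contigs appear by range. The members and lists were chosen with earlier results of these data known.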

Additional observations from a re-analysis of the deposited data

Results flagged for a closer look

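The responses of 5 contigs differed between AO and NM by the test of the 2 responses themselves (log2 response in AO minus that in NM, edgeR's quasi-likelihood test). For *fgfr2* at 12 hpt the difference was -1.03. At 24 hpt it was -1.89 for *fgf13*, -2.74 for *fgf14* (DN116380_c2_g1) and -2.86 for *spred1* (DN87325_c6_g1). For *spred2* (DN103976_c2_g1) it was -6.80, a fitted value that depends on the prior count because untreated NM held no count. All 5 contigs had lower levels in untreated NM than in untreated AO, a difference called only for *fgf13* and *fgf14*. For *fgfr2* this log2 difference was 0.80, under the fold threshold.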

How the results depend on the processing

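Of the 74 calls of single contigs, 74 held under the CPM filter and the replicate block, and 73 with DESeq2 size factors or no filter. DESeq2's test kept 66, the exact test 68 of 68, fits of the groups compared alone 52 of 73, and summed contigs of a name 49. An FDR under 0.05 keeps all 74 by definition, since it reads the main fit at a looser threshold. Leaving out single libraries kept 61 to 71 of the 74. These include calls that do not compare the library left out, which it can change only through the shared fit. The counts of contigs called moved as follows. With only the groups compared they were 3 (untreated AO against EP), 0 (untreated AO against NM), 5 (NM at 12 hpt), 0 (AO against NM at 12 hpt) and 0 (response at 12 hpt). For AO against NM at 12 hpt this fit called 0 higher and 0 lower of 21024 genes. At an FDR under 0.05 the counts were 6 between untreated AO and NM, 1 between AO at 24 and 12 hpt and 3 for the response at 12 hpt. The exact test gave 1 for AO at 24 against 12 hpt, and DESeq2's test and size factors gave 0 for the response at 12 hpt. Summed contigs gave 1 for AO against NM at 12 hpt and 1 for the response at 24 hpt, and turned *spred2* to -0.06 (NM at 24 hpt against untreated), -0.36 (against 12 hpt) and 0.21 (response at 24 hpt), because its other contigs outweigh the called one.

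Leaving out 1 library at a time gave 4 to 7 calls for untreated AO and 6 to 10 for untreated NM against EP, 1 to 3 between them, 6 to 10 for AO and 7 to 9 for NM at 12 hpt, and 8 to 9 and 11 to 13 at 24 hpt. It gave 0 for AO and 6 to 8 for NM between 12 and 24 hpt, 0 to 3 and 0 between the organs at 12 and 24 hpt, and 0 to 1 and 1 to 4 for the responses. A lone library was assumed to vary like the other groups.

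The replicate block gave 5 calls between untreated AO and NM, 1 for AO at 24 against 12 hpt and 2 for the response at 12 hpt. Replicate numbers correlated weakly but positively in all 21 pairs of groups (range 0.0969 to 0.205, over 0.1 in 20). An effect shared by libraries of one replicate number is therefore possible. The main fit left it out, and the replicate block is the alternative that includes it. Levels near or under 1 CPM rest on few counts, which limits *fgf8*, *fgf4-b* and *fgf6*. It also limits the differences of *spred1* (DN87325_c6_g1), *spred2* (DN103976_c2_g1) and *flrt1* from untreated NM or EP.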
